A study of Mus musculus with 13 samples.

Results

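Vesicles released by C26 cells in culture were set against vesicles pelleted from the plasma of tumour-free mice, by the microRNAs (miRNAs) that both carried. C26 is an established colon adenocarcinoma line from Balb/C mice that is used to induce cachexia, the wasting of muscle and fat in cancer. The cells were kept for 48 h in serum-free DMEM, and the vesicles in that medium, called tumour microvesicles (TMVs) here, gave 3 libraries. The control plasma vesicles came from Balb/C mice labelled healthy and gave 4 libraries, of which replicates 2 and 3 carry 2 numbers each in their descriptions, with no stated meaning. No label gives the age or sex of the mice, a sham injection, or whether a library is 1 mouse or 1 culture dish, so the p-values measure only the spread between these libraries. The series also holds 6 libraries of plasma vesicles from cachectic Balb/C mice killed 14 days after C26 cells were injected under the skin, and these serve below only as values set beside the others. Both kinds of vesicle were pelleted at 100000 g after slower spins, and total RNA was taken from them.

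The members were every miRNA listed in both deposited tables, 1 table for TMVs and 1 for plasma. Of 1452 miRNAs in either table, 1066 were in both, and 1065 remained once miR-5119 was set aside, because it alone took 46.1% of the counts of control library 4 and at most 0.819% of any other library compared. Among these 1065, 749 had a count in at least 1 of the 7 libraries, 387 of them in both groups, 250 in TMVs alone and 112 in control plasma alone. A filter on low counts kept 208 for testing, and these held between 84.2% and 99.4% of the counts of a library. Of the 208, 112 reached the filter level in at least 3 libraries of each group, 52 in TMVs alone, 35 in control plasma alone and 9 in neither group on its own. A miRNA kept through 1 group alone is high there by selection, so counts of calls within a list that rest on such members are descriptions of those members only. Source material and table are confounded in this comparison: every TMV value comes from 1 table and every plasma value from the other, so a difference between cells in culture and blood cannot be told apart from a difference in how the 2 sets were prepared, sequenced or counted.

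MicroRNAs are short RNAs cut from hairpin precursors, and each hairpin can yield a mature strand from its 5′ arm (5p) and another from its 3′ arm (3p). A mature miRNA guides the Argonaute proteins to messenger RNAs mainly through its seed, bases 2 to 8, so miRNAs with the same seed are grouped into families. Blood vesicles carry miRNAs from many tissues, among them liver, red cells, endothelium and gut, while the medium of a single cell line should carry mainly those of that line. The TMV libraries also held some miRNAs best known from liver, red cells and muscle, whose origin was not tested.

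The mature sequences on which the comparison turns are given here from RefSeq (GRCm38.p6), 5′ to 3′, with the seed in capitals. The first set holds miRNAs far more abundant in TMVs, chosen to show that their seeds differ.
miR-31-5p: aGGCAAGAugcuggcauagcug
miR-9-5p: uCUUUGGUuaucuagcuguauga
miR-218-5p: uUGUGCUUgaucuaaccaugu
miR-182-5p: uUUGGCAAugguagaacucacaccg
miR-125b-5p: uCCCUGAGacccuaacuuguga
The second set holds miRNAs far more abundant in control plasma, among which miR-192-5p and miR-215-5p share a seed.
miR-192-5p: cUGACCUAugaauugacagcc
miR-215-5p: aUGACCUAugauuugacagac
miR-455-5p: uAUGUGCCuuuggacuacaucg
miR-451a: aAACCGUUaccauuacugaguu
miR-126a-3p: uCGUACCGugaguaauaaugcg
The third set holds relatives with 1 seed whose members lay on opposite sides of the comparison, or of which only 1 member passed the test.
miR-99a-5p: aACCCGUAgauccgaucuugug
miR-99b-5p: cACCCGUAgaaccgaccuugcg
miR-100-5p: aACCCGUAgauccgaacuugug
miR-148a-3p: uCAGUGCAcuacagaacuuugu
miR-152-3p: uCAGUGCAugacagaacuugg
miR-146a-5p: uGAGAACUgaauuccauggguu
miR-146b-5p: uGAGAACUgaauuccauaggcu
miR-10a-5p: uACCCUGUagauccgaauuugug
miR-10b-5p: uACCCUGUagaaccgaauuugug
miR-30a-5p: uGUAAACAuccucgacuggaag
miR-30e-5p: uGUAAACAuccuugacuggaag
A script compared these relatives base by base, counting from 1 at the 5′ end and naming the base of the first miRNA, the position and the base of the second. From miR-99a-5p to miR-100-5p the 1 difference was U16A, and to miR-99b-5p the 4 were A1C, U11A, U16C and U21C. From miR-10a-5p to miR-10b-5p it was U12A, and from miR-30a-5p to miR-30e-5p it was C13U. From miR-148a-3p to miR-152-3p the 3 were C9U, U10G and U20G, with miR-152-3p 21 bases long against 22. From miR-146a-5p to miR-146b-5p they were G18A and U21C, and from miR-192-5p to miR-215-5p C1A, A12U and C20A. The sources used here do not say how the authors assigned reads that match several such relatives, and values of near-identical miRNAs are uncertain against each other.

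Counts without miR-5119 were 146467, 112345 and 170552 in TMV libraries 1 to 3 and 125888, 55312, 130543 and 4293 in control libraries 1 to 4. Control 4 was the shallow one: a count of 0 there, read as at most 3 counts, leaves room for 698.8 CPM (counts per 1000000 counts of the library), against 17.6 to 54.2 CPM in the other 6 libraries, and such limits cover counting error only. Levels below are CPM of the library total without miR-5119, so they are shares of the miRNA reads and not amounts per vesicle. In such bulk material fewer vesicles from a cell type and less of a miRNA per vesicle cannot be told apart. Over the 208 miRNAs the log2 CPM of TMV libraries correlated with each other at Pearson r of 0.974 to 0.978, control libraries 1 to 3 at 0.890 to 0.938, control 4 with the other controls at 0.702 to 0.747, and TMVs with controls at 0.391 to 0.506, as a description across miRNAs that share their libraries.

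Most of the tested miRNAs differed between the 2 materials. In edgeR's quasi-likelihood test with Benjamini-Hochberg adjustment at 0.05, 143 of 208 passed (68.8%): 94 were higher in TMVs (45.2%) and 49 lower (23.6%). The groups did not overlap in CPM with TMVs above for 94 miRNAs (45.2%), 91 of them called, and with TMVs below for 38 (18.3%), 36 of them called. The 94 higher miRNAs held 78.2% ± 0.835 (SD, n = 3) of TMV counts and 15.8% ± 2.11 (SD, n = 4) of control counts, and the 49 lower ones 7.18% ± 0.911 and 70.5% ± 8.97. TMV counts were spread over more miRNAs: the 5 most abundant of each library held 31.4% ± 2.52 of TMV counts and 55.6% ± 8.59 of control counts.

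The split between the sides depended on the scaling. With totals as the scale, the median log2 fold change (TMVs minus control plasma) of the 208 was 1.02. With TMM factors, which centre the bulk of the miRNAs, it was 0.19, each miRNA moved by a median of -0.83, and 66 were higher (31.7%) and 56 lower (26.9%). All 49 lower miRNAs and 66 of the 94 higher ones were called under both scalings, and none of the 143 turned sign under any scaling tried. Without control 4 the test called 100 higher and 42 lower, with all 94 of the higher ones kept and 41 of the 43 lower ones that still passed the filter. Around the threshold, miR-30d-5p (adjusted p = 0.0472) and miR-93-5p (0.0499) were just inside, and miR-652-3p (0.0516) and miR-106b-5p (0.0543) just outside, by the same edgeR test.

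**Figure D1:**
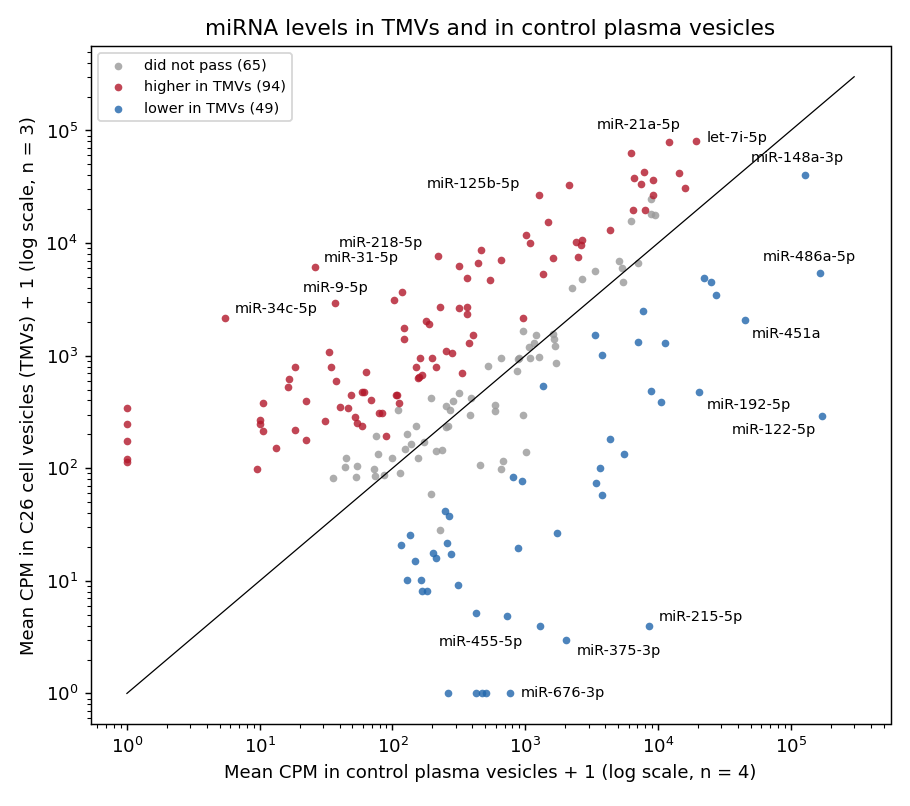
Mean CPM + 1 of the 208 tested miRNAs in control plasma vesicles (x axis, 4 libraries) and in TMVs (y axis, 3 libraries), both on log scales. Points are coloured by the edgeR call with totals as the scale, 94 higher and 49 lower in TMVs, and the diagonal marks equal CPM. The points at the left and lower edges were at 0 counts in 1 group.

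The 3 miRNAs taken as markers of the 2 sides did not overlap between the groups. miR-31-5p, which is raised in many colorectal tumours, was at 7838, 5688 and 4808 CPM in TMV libraries 1 to 3 and 15.9, 54.2, 30.6 and 0 CPM in control libraries 1 to 4. Its log2 fold change was 7.62 (SE 0.62) with adjusted p = 1.30e-05 in edgeR, and its precursor Mir31 lies at chr4:88910557-88910662 (minus strand) in an exon of a long non-coding RNA. miR-125b-5p, a miRNA of growth and differentiation with copies on chromosomes 9 and 16, was at 32389.5, 22155 and 25476 CPM in TMVs and 1533, 1482, 1371 and 699 CPM in controls, which gave a log2 difference of 4.32 (SE 0.40, edgeR adjusted p = 2.02e-05). miR-122-5p, the dominant miRNA of hepatocytes, was at 198, 294 and 375 CPM in TMVs and 255282, 249711, 76289 and 108782 CPM in controls, which gave a log2 difference of -9.21 (SE 0.73, edgeR adjusted p = 1.30e-05). All 3 TMV libraries held some of this liver miRNA, and the highest of them lay far below the lowest control. These markers were proposed with results of the data in view, so they describe the 2 sides and do not test the labels independently.

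Epithelial miRNAs and the gut and liver group were low or missing in the vesicles of the colon carcinoma line. The filter kept miR-200a-3p, miR-200b-3p, miR-205-5p, miR-194-5p and miR-215-5p through control plasma alone, and what the cells themselves express was not tested. In TMVs miR-200a-3p and miR-205-5p had 0 counts, miR-200b-3p was at 7.20 ± 1.55 CPM, miR-215-5p at 2.97 ± 5.14, miR-194-5p at 76.1 ± 30.8 and miR-192-5p at 472 ± 126 CPM (mean ± SD, n = 3). Of the untested relatives, miR-141-3p and miR-429-3p also had 0 counts in the 3 TMV libraries and miR-200c-3p had 2. All of these are carried by intestinal epithelium except miR-205-5p, which marks stratified epithelia.

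The 12 miRNAs of widest difference on the TMV side, among those with at least 1000 CPM there and no overlap, were led by miR-34c-5p. miR-34c-5p, a miRNA that p53 induces, was at 1796, 2012 and 2679.5 CPM in TMVs and 0, 18.1, 0 and 0 CPM in controls, where it rested on 1 count. The pooled counts put it 696-fold higher in TMVs, with an exact 95% counting interval of 125 to 27531, and edgeR's adjusted p was 2.29e-05. Its neighbour miR-34b-3p, from the same primary transcript on chromosome 9, was at 307, 187 and 240.4 CPM in TMVs and 0, 36.2, 0 and 0 in controls, 39.4-fold by pooled counts (10.6 to 329, from 2 control counts), and edgeR's adjusted p was 0.00202. The opposite arm of the first, miR-34c-3p, was too low to test and had 43 counts in TMVs and none in controls. Against a floor of 3 counts over the group it was at least 11.2-fold higher by mean CPM and at least 10.55-fold by pooled counts. The p53-induced miR-34a-5p of the same family had 6 counts in TMVs and 2 in controls, and miR-34b-5p had none.

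miR-9-5p, best known from the developing nervous system, was at 2560.3, 2813 and 3453 CPM in TMVs and was seen in 1 control library, at 144.6 CPM in control 2. Its opposite arm miR-9-3p was at 178, 187 and 375 CPM in TMVs and 0 in all controls, at least 26.0-fold higher. For miR-9-5p edgeR gave a log2 difference of 6.37 (SE 1.22) with adjusted p = 0.00148, a size that rested on control 2: without it the value was 11.40, without control 1 it was 5.72 and without control 3 5.65. Without TMV 3 the value of miR-9-3p went from 7.73 to 7.14. Of the other neural miRNAs 1 was tested. miR-128-3p, abundant in neurons, was lower in TMVs, 1645, 1353 and 885 CPM against 9445, 11064, 21625 and 3261 CPM (log2 fold change -3.15, SE 0.62, edgeR adjusted p = 0.00148). Too low to test were miR-138-5p, with 19 counts in TMVs and 4 in controls, and miR-124-3p, with 0 in both.

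miR-218-5p, which is encoded in introns of the axon guidance genes Slit2 (chr5:48223942-48224051) and Slit3 (chr11:35616816-35616925), was at 7333, 7263 and 8472 CPM in TMVs and 199, 127, 91.9 and 466 CPM in controls. It was higher in TMVs by 5.57 (SE 0.56) on the log2 scale with edgeR adjusted p = 2.29e-05, and the lowest TMV library lay above the highest control. The sensory-organ cluster on chromosome 6 was higher with both tested members: miR-182-5p (3421, 3988 and 3624 CPM against 71.5, 72.3, 91.9 and 233) by 5.40 (SE 0.53) on the log2 scale and miR-183-5p (2629, 2911 and 2486 CPM against 254, 434, 345 and 233) by 3.01 (SE 0.45), with edgeR adjusted p of 2.29e-05 and 0.000249. Of all 208 tested 45.2% were higher, and miR-182-5p was kept by the filter through TMVs alone. The third member of the cluster, miR-96-5p, had 7 counts in TMVs and none in controls.

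The remaining 7 of the 12 were miR-125a-3p, miR-28a-3p, miR-471-5p, miR-103-3p, miR-125b-5p, miR-152-3p and let-7e-5p, with log2 fold changes from 6.12 down to 3.94. Among them miR-125a-3p and miR-125b-5p come from hairpins of the miR-125 family, and miR-125a-3p and let-7e-5p from neighbouring hairpins on chromosome 17. miR-28a-3p, from an intron of Lpp, was at 3639, 3169 and 2568 CPM in TMVs and 111, 0, 61.3 and 233 in controls (log2 fold change 5.46, and 6.05 without control 1). miR-471-5p, from an X-linked group of miRNAs described in testis, was at 1065, 988 and 1179 CPM in TMVs and 39.7, 36.2, 53.6 and 0 in controls. miR-103-3p, encoded within the pantothenate kinase genes Pank2 and Pank3, was at 6431, 5421 and 6731 CPM in TMVs and 238, 90.4, 475 and 466 in controls (log2 fold change 4.40, SE 0.59, edgeR adjusted p = 0.000138). The filter kept miR-34c-5p, miR-31-5p, miR-9-5p, miR-125a-3p, miR-28a-3p, miR-182-5p and miR-471-5p through TMVs alone, so they are high there by selection. No overlap was part of the rule by which the 12 were chosen. All 12 kept their call in each of the 19 alternative settings, which reuse the same libraries and are no independent support.

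**Figure D2:**
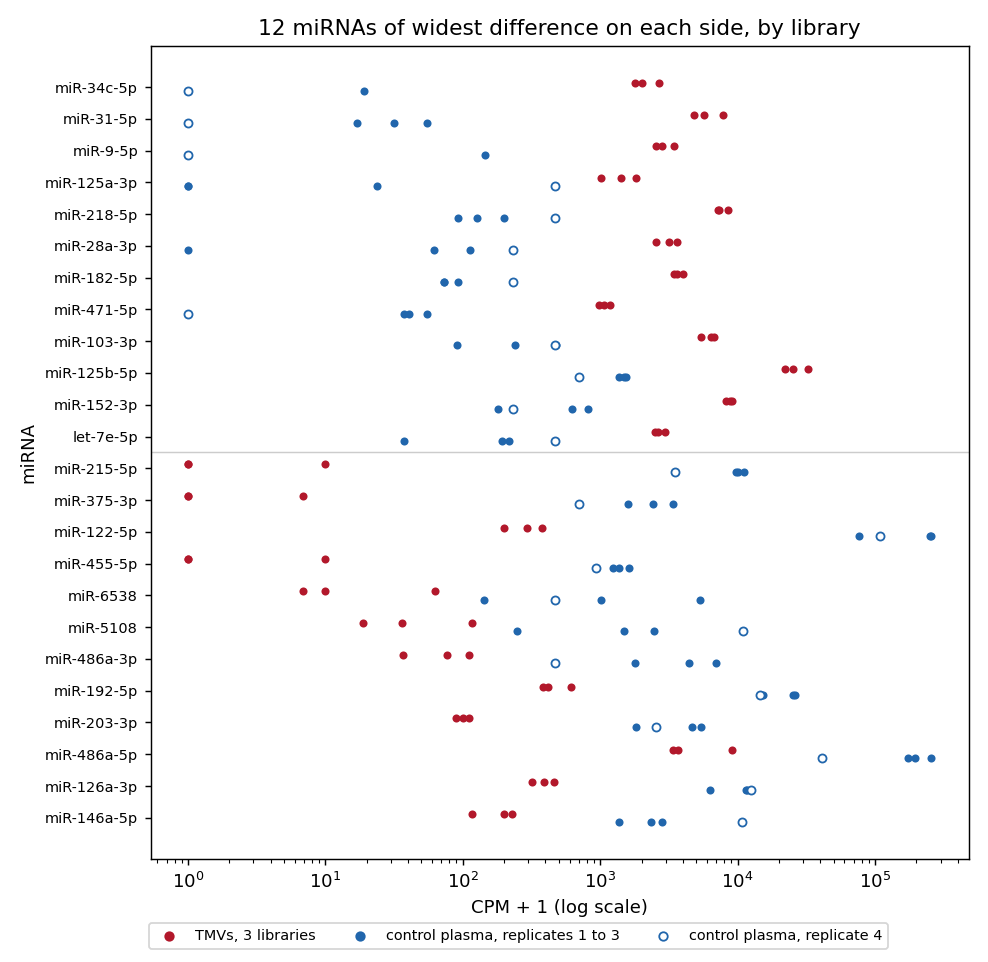
CPM + 1 by library (x axis, log scale) for the 12 miRNAs of widest difference on the TMV side (upper block) and on the control plasma side (lower block). Filled red points are the 3 TMV libraries, filled blue points control libraries 1 to 3 and open points the shallow control 4; for each of the 24 miRNAs all red points lie on 1 side of all blue ones, and a value of 1 means 0 counts.

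The let-7 family, which restrains growth genes such as Hmga2, held the largest share of TMV counts among the 34 families and tissue lists examined. Its 10 listed members held 27.0%, 27.0% and 25.7% of counts in TMV libraries 1 to 3 and 4.26%, 3.87%, 6.78% and 7.57% in control libraries 1 to 4. The 2 groups did not overlap, and the smallest two-sided p that an exact permutation test of 3 libraries against 4 can give is 0.0571, so no such share could pass 0.05. Of 9 members tested 7 were higher in TMVs and none lower, beside 45.2% higher over all 208. With TMM factors 5 of the 9 were higher, beside 31.7% over all 208. The median log2 fold change of the 9 with totals was 2.03, beside 1.02 over all 208. let-7i-5p had the highest mean CPM of TMVs, although let-7c-5p led in TMV 1 and miR-21a-5p in TMV 3. It was at 68712, 87569.5 and 87897 CPM against 10883, 13903, 30258 and 22129 CPM in controls (log2 fold change 2.08, SE 0.41, edgeR adjusted p = 0.00150). let-7c-5p differed more, with 72255, 64373 and 54376 CPM in TMVs and 5783, 5605, 8197 and 5590.5 CPM in controls (log2 fold change 3.33, SE 0.35, edgeR adjusted p = 2.70e-05). let-7g-5p and miR-98-5p did not pass, at log2 fold changes of 1.55 and 1.32, and let-7b-5p lost its call with TMM factors (edgeR adjusted p = 0.109).

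miR-21a-5p, raised in most solid tumours, was second in TMVs by mean CPM, at 63045, 76835 and 97278 CPM against 7793, 7412, 14248 and 19334 in controls (log2 fold change 2.71, SE 0.43, edgeR adjusted p = 0.000417). miR-210-3p, the miRNA most regularly induced by low oxygen, was at 792, 668 and 686 CPM in TMVs and 7.94, 163, 76.6 and 0 CPM in controls (log2 fold change 3.29, SE 0.77, edgeR adjusted p = 0.00344), and its value without control 2 was 4.09. miR-378a-3p, encoded in the gene of the metabolic coactivator PGC-1β, was also among the 10 most abundant of TMVs and higher there, 33441 ± 4636 CPM against 7469 ± 1283 CPM (mean ± SD, n = 3 and 4; log2 fold change 2.17, SE 0.34, edgeR adjusted p = 0.000349). miR-140-3p, known from cartilage, was at 36397, 46918 and 44614 CPM in TMVs and 4194, 5261, 3723 and 18169 CPM in controls, where control 4 alone stood far above the rest. It was higher in TMVs by 2.49 (SE 0.57) on the log2 scale with edgeR adjusted p = 0.00284, and by 3.28 without control 4, while the opposite arm miR-140-5p, at 419 ± 96.3 and 392 ± 256 CPM, did not pass (adjusted p = 0.992).

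Further families are given by their calls, to be read beside the 45.2% of the 208 that were higher and the 23.6% that were lower. All 3 tested members of the cluster of miR-221 and miR-222, which represses the cell-cycle inhibitor p27, were higher, from 2.09 for miR-222-3p to 3.70 for miR-221-3p on the log2 scale, although only miR-221-3p passed with TMM factors, and miR-222-3p lost its call without TMV 1 (adjusted p = 0.0840). In the miR-130 family miR-130a-3p was higher by 3.17 and miR-130b-3p by 3.18, both of them kept by the filter through TMVs alone, with 5 and 3 counts in the controls. The value of miR-130a-3p was 2.51 without control 1 and 4.46 without control 3, and the call of miR-130b-3p was lost in DESeq2 (adjusted p = 0.0538) and, in edgeR, without TMV 2 (0.0590). Of the miR-125 family 2 of 3 were higher and miR-125a-5p did not pass (log2 fold change 1.28, adjusted p = 0.216). Of the clusters of miR-23, miR-24 and miR-27 4 of 7 were higher and none lower, miR-23a-3p by 3.85 (4.68 without control 4) and miR-23b-3p by 3.64, while the mature 3p strands of miR-27a and miR-27b did not pass, at 0.12 and 0.46, and both turned negative with TMM factors. Both members of the miR-26 family were higher with totals (2 of 2) and neither with TMM factors. The miR-17 to miR-92 cluster with its paralogues had 3 of 7 higher and 1 lower (1 and 2 with TMM factors). Among the higher members of these clusters, miR-221-5p, miR-23b-3p, miR-27a-5p and miR-17-5p were also kept by the filter through TMVs alone, so they are high there by selection. miR-29a-3p, a repressor of collagens, was higher with totals by 1.94 (adjusted p = 0.00187) and not with TMM factors (0.0609), all by edgeR.

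The hairpins miR-199a-2 and miR-214 lie close together on chromosome 1 (chr1:162217814-162217923 and chr1:162223368-162223477, plus strand), in a transcript known from mesenchymal tissue, and miR-199a has a further copy elsewhere. miR-199a-3p was at 12228, 11829.6 and 21847 CPM in TMVs and 802, 615, 766 and 3727 CPM in controls (log2 fold change 3.62, SE 0.66, edgeR adjusted p = 0.000900). miR-214-3p was at 5769, 4699.8 and 4192 CPM against 222, 307, 459.6 and 466 CPM (log2 fold change 3.82, SE 0.47, edgeR adjusted p = 8.95e-05). Their other strands, miR-199a-5p (2.82) and miR-214-5p (4.44), were higher too, so all 4 strands passed, beside 45.2% higher of all 208 tested. Of these strands miR-214-5p was kept by the filter through TMVs alone, so it is high there by selection. These were singled out after their values were seen.

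**Figure D3:**
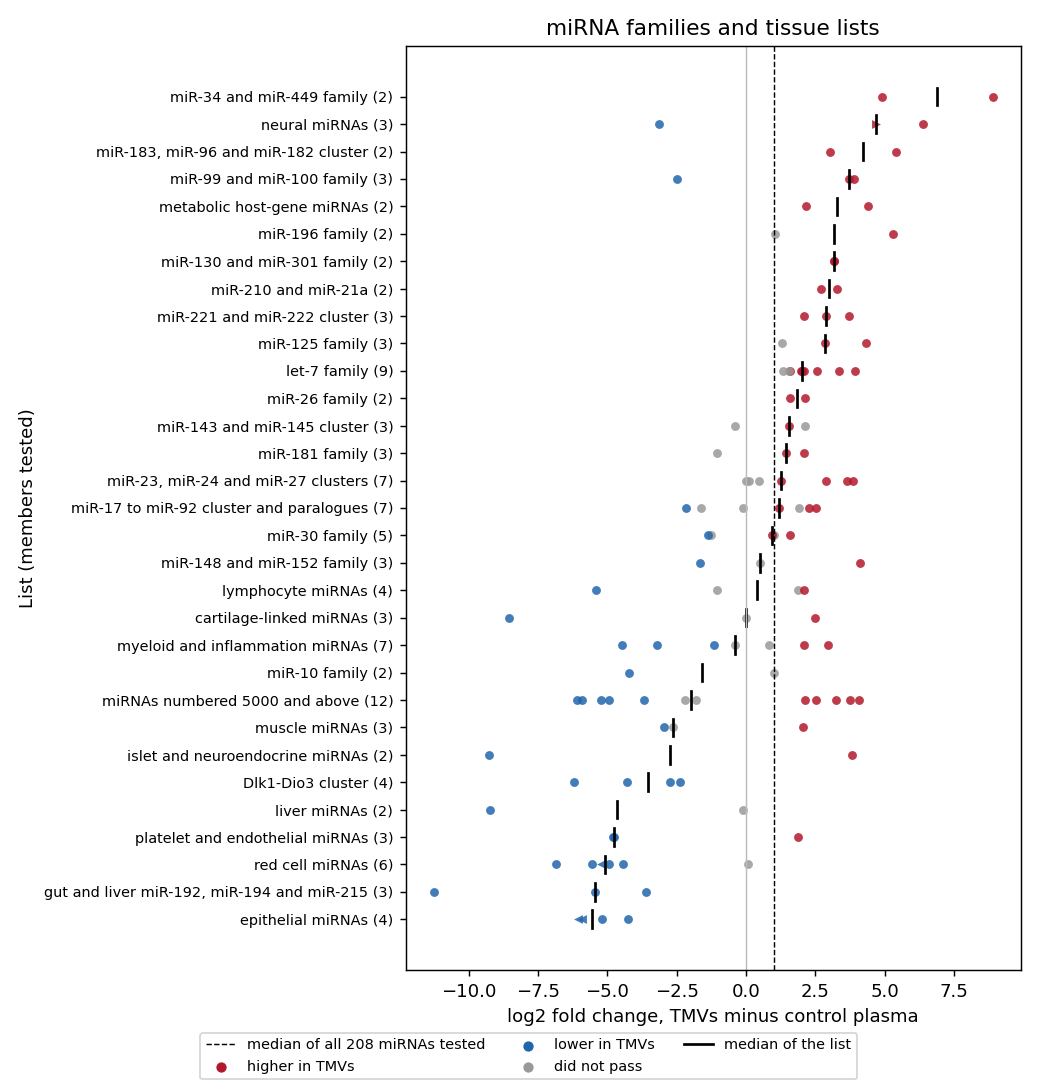
Log2 fold changes (x axis, TMVs minus control plasma, totals as the scale) of the tested members of each family or tissue list with at least 2 tested (rows, members tested in brackets). Black ticks mark the median of a list, the dashed line the median of all 208 tested (1.02), and triangles members at 0 counts in 1 group, drawn at their bound. Lists of red cell, gut, liver and epithelial miRNAs lie at the lower left, and members kept by the filter through 1 group alone are drawn as the others are.

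On the plasma side the liver miRNAs held the second largest share of the lists, 17.3% ± 9.31 (SD, n = 4) of control counts against 0.103% ± 0.0357 (SD, n = 3) of TMV counts. Of 2 liver members tested 1 was lower in TMVs, miR-122-5p, beside 23.6% of all 208. The other, miR-101b-3p, did not pass, at a mean of 736 CPM in TMVs and 868 CPM in controls (log2 fold change -0.12). miR-122-5p had the highest mean over the 4 controls, 172516 CPM against 166831 CPM for miR-486a-5p, but the order turned with the weight of the libraries: in pooled counts miR-486a-5p led (68011 against 56375), as it did in the mean of controls 1 to 3 (208698 against 193761 CPM). The share of miR-122-5p differed widely between the controls, from 76289 CPM in control 3 to 255282 CPM in control 1. The gut and liver group of miR-192, miR-194 and miR-215 was lower in TMVs with all 3 members, against 23.6% of all 208 tested. The filter kept 2 of the 3 through control plasma alone. miR-215-5p was at 9683, 10142, 11046 and 3494 CPM in controls and had 1 count in all TMV libraries, 4398-fold lower by pooled counts (789 to 173755, 95% exact counting interval), with edgeR's adjusted p = 1.30e-05. miR-192-5p was at 382, 418 and 616 CPM in TMVs and 26126, 25419, 15359 and 14675 CPM in controls (log2 fold change -5.43, SE 0.49, edgeR adjusted p = 1.87e-05). miR-194-5p, which sits beside miR-215 on chromosome 1 and beside miR-192 on chromosome 19, was at 54.6, 62.3 and 111 CPM in TMVs and 1446, 651, 774 and 932 CPM in controls (log2 fold change -3.62, SE 0.56, edgeR adjusted p = 0.000349). As a group the 3 held 0.0551% ± 0.0155 of TMV counts and 2.99% ± 0.852 of control counts.

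Red cell miRNAs held 21.7% ± 8.68 (SD, n = 4) of control counts and 0.850% ± 0.608 (SD, n = 3) of TMV counts. Of 6 tested members 5 were lower in TMVs, against 23.6% of all tested, 3 of these 5 having been kept by the filter through control plasma alone. The 6 had a median log2 fold change of -5.25 (-5.08 with the member at 0 placed at its bound). miR-486a-5p, encoded in the red cell ankyrin gene Ank1 at chr8:23142555-23142682, was at 3714, 3382 and 9076 CPM in TMVs and 196492, 172585, 257019 and 41229.9 CPM in controls (log2 fold change -4.95, SE 0.72, edgeR adjusted p = 0.000248). miR-451a, the Dicer-independent miRNA of erythroid cells, was at 464, 694 and 5078 CPM in TMVs and 34126, 23123, 56426 and 65921 CPM in controls (log2 fold change -4.43, SE 0.92, edgeR adjusted p = 0.00212). TMV 3 held more of both than the other TMV libraries did, and still lay below every control. Without TMV 3 the log2 fold changes were -5.56 for miR-486a-5p and -6.27 for miR-451a. miR-144-3p, from the same transcript as miR-451a, had 2 TMV counts against 205 in controls, 139-fold lower (38.1 to 1158), and miR-144-5p had none against 36, at least 37.1-fold lower by the mean of the 4 controls and at least 16.1-fold without control 4. miR-16-5p, which red cells share with most tissues, did not pass, at 951 ± 294 CPM in TMVs and 1086 ± 1022 CPM in controls.

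Of 7 listed epithelial miRNAs 4 were tested, 3 of them kept by the filter through control plasma alone. All 4 were called lower in TMVs, against 23.6% of all 208 tested. miR-200a-3p, a repressor of the mesenchymal factors Zeb1 and Zeb2, was at 500.4, 416, 498 and 466 CPM in controls and 0 in TMVs, at least 67.3-fold lower. miR-205-5p was at 373, 506, 345 and 466 CPM in controls and 0 in TMVs. It was at least 60.5-fold lower by the mean of the 4 controls and at least 55.2-fold by pooled counts. miR-203-3p, a miRNA of skin, was at 109, 89 and 99.7 CPM in TMVs and 1835, 5406, 4696 and 2562 CPM in controls (log2 fold change -5.19, SE 0.61, edgeR adjusted p = 6.29e-05). miR-375-3p, the miRNA of pancreatic islets and gut endocrine cells, was at 1605, 2423, 3378 and 699 CPM in controls and had 1 TMV count, 1060-fold lower (190 to 41909, edgeR adjusted p = 2.70e-05). It too was kept by the filter through control plasma alone. miR-7a-5p, also of endocrine cells, was on the other side, at 6268, 6854 and 6942 CPM in TMVs and 302, 416, 812 and 233 CPM in controls (log2 fold change 3.80, SE 0.50, edgeR adjusted p = 0.000121).

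miR-126a-3p, the endothelial miRNA of the Egfl7 gene, was at 321, 463 and 387 CPM in TMVs and 6323, 11426, 11628 and 12579 CPM in controls (log2 fold change -4.74, SE 0.48, edgeR adjusted p = 2.29e-05). Its 5p strand was lower as well, by -4.79 on the log2 scale, from 3 TMV counts against 85. miR-191-5p, which platelets share with many cells, was higher in TMVs (1.87, SE 0.40, edgeR adjusted p = 0.00211). miR-455-5p, from an intron of Col27a1, a collagen gene (chr4:63256851-63256932), was at 1366, 1609, 1249 and 932 CPM in controls and had 1 TMV count, 581-fold lower (104 to 23020, edgeR adjusted p = 2.29e-05). miR-676-3p was at 1144, 579, 1095 and 233 CPM in controls and 0 in TMVs, at least 109-fold lower. The filter kept miR-126a-5p, miR-455-5p and miR-676-3p through control plasma alone.

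White-cell miRNAs had calls on both sides, as the tested miRNAs at large did (45.2% higher and 23.6% lower), and the lymphocyte list had 1 of 4 tested members lower and 1 higher. miR-150-5p, the miRNA of mature lymphocytes, was at 13.7, 35.6 and 5.86 CPM in TMVs and 763, 524, 605 and 1631 CPM in controls (log2 fold change -5.41, SE 0.77, edgeR adjusted p = 0.000217, and -6.25 without TMV 2). miR-150-3p had 0 TMV counts, at least 72.8-fold lower by the mean of the 4 controls and at least 47.1-fold by pooled counts. Of 7 tested myeloid and inflammation miRNAs 3 were lower and 2 higher. miR-223-5p was lower by -3.21, while miR-223-3p, the defining granulocyte strand, had 2 TMV counts against 18 and was not tested. Of the white-cell miRNAs, miR-150-5p, miR-150-3p and miR-223-5p were kept by the filter through control plasma alone. One of the higher myeloid members, miR-147-3p, was kept through TMVs alone. Such members are high on their side by selection. miR-155-5p, induced in activated leukocytes, did not pass at 238 ± 18.3 and 262 ± 182 CPM. miR-142a-5p, a strand of blood cells in general, was at 1488, 1273 and 1818 CPM in TMVs and 3074, 2766, 4795 and 2795 CPM in controls, and its call was lost without TMV 1, TMV 2, TMV 3 or control 3 (adjusted p = 0.105, 0.153, 0.0790 and 0.0931 in edgeR).

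Muscle miRNAs stood high in single libraries of both groups: the list held 0.205%, 1.09% and 0.168% of counts in TMV libraries 1 to 3 and 1.67%, 1.60%, 0.747% and 7.45% in control libraries 1 to 4. miR-1a-3p was at 806, 9026 and 645 CPM in TMVs and 15268, 15494, 6795 and 72444 CPM in controls, so that TMV 2 overlapped the controls and control 4 stood far above them. It was called lower (-2.96, SE 1.13, edgeR adjusted p = 0.0394), at -5.23 without TMV 2 and -1.84 without control 4, and the call was lost without TMV 1 (0.121), TMV 3 (0.110), control 2 (0.0547) or control 4 (0.162). miR-133a-3p followed miR-1a-3p across the TMV libraries, at 13.7, 267 and 11.7 CPM, and did not pass. miR-206-3p, restricted to skeletal muscle in adults, was higher in TMVs, 1229, 1647 and 1020.2 CPM against 349.5, 199, 260.5 and 699 CPM (2.04, SE 0.51, edgeR adjusted p = 0.00460), and was lost with TMM factors (0.0577) and without TMV 2 (0.0515). The imprinted Dlk1-Dio3 cluster on chromosome 12 had 4 members tested of 32 listed. The filter kept these 4 through control plasma alone, so that their being lower, from -6.20 for miR-541-5p to -2.38 for miR-127-3p, followed from how they came to be tested. The value of miR-127-3p was -3.98 without TMV 2, and the call of miR-127-3p was lost without TMV 1, TMV 3, control 1 or control 3 (adjusted p = 0.150, 0.167, 0.0673 and 0.0562).

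Some relatives with the same seed lay on opposite sides. Sequences were matched by name for 180 of the 208, and 52 of them fell into 18 families of at least 2 that share bases 2 to 8. In 3 families all tested members were higher in TMVs (the seeds of miR-130, miR-221 and miR-26, the first with members kept by the filter through TMVs alone), in 1 all were lower (the seed of miR-192), and in 4 at least 1 was higher and 1 lower (the seeds of miR-99a, miR-148a, miR-146a and miR-30a). In 7 some were higher and none lower, in 2 some lower and none higher, and in 1 none passed. miR-99b-5p was at 38616, 33994 and 25294 CPM in TMVs and 2391, 2857, 2359 and 932 CPM in controls (log2 fold change 3.88, SE 0.43, edgeR adjusted p = 4.19e-05). miR-100-5p was at 11934, 11598 and 11633 CPM against 778, 868, 521 and 1864 CPM (log2 fold change 3.71, SE 0.48, edgeR adjusted p = 0.000118). miR-99a-5p, 1 base different from miR-100-5p, went the other way, at 5257, 3889.8 and 4298 CPM against 37073, 21080.4, 32709.5 and 9550.4 CPM (log2 fold change -2.49, SE 0.50, edgeR adjusted p = 0.00157).

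In the family of miR-148 and miR-152, which targets the DNA methyltransferase Dnmt1, miR-152-3p was at 8295, 9088 and 8854 CPM in TMVs and 628, 181, 819.7 and 233 CPM in controls (log2 fold change 4.09, SE 0.56, edgeR adjusted p = 0.000148). miR-148a-3p was abundant on both sides and lower in TMVs, 35626, 49304 and 36822 CPM against 112139, 131671, 116904 and 153739 CPM (log2 fold change -1.66, SE 0.34, edgeR adjusted p = 0.00170). miR-148b-3p lay between them, at 0.51 with totals and -0.32 with TMM factors, and did not pass under either. miR-146b-5p was higher, 10125, 10868 and 9522 CPM against 2279.8, 1862, 3171 and 2329 CPM (log2 fold change 2.07, SE 0.37, edgeR adjusted p = 0.000813). miR-146a-5p, induced by NF-κB in immune cells, was lower, 198, 116 and 229 CPM against 1382, 2350.3, 2819 and 10715 CPM (log2 fold change -4.47, SE 0.81, edgeR adjusted p = 0.000890), with control 4 the highest library and the log2 fold change at -3.58 without it.

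The miR-10 pair is encoded in Hox clusters, miR-10a beside the HoxB genes on chromosome 11 and miR-10b within Hoxd3 and Hoxd4 on chromosome 2. miR-10a-5p was at 18011, 18826 and 17977 CPM in TMVs and 12193, 7123, 12816 and 3494 CPM in controls and did not pass (log2 fold change 1.02, edgeR adjusted p = 0.0617), although every TMV library lay above every control. miR-10b-5p was at 355, 712 and 381 CPM against 11009.8, 8678, 12862 and 2562 CPM and was lower (log2 fold change -4.21, SE 0.63, edgeR adjusted p = 0.000280). In the miR-30 family miR-30a-5p was higher by 1.59 with totals and did not pass with TMM factors (0.109), and miR-30e-5p was lower by -1.38 and lost its call without TMV 1, 2 or 3 (adjusted p = 0.102, 0.128 and 0.0688). In the Hox-linked miR-196 pair miR-196b-5p was higher, 618 ± 92.3 CPM against 15.5 ± 26.1 CPM (5.31, SE 0.91, edgeR adjusted p = 0.000606), at 6.98 without control 2 and 4.61 without control 3, and miR-196a-5p did not pass (1.06, adjusted p = 0.201).

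**Figure D4:**
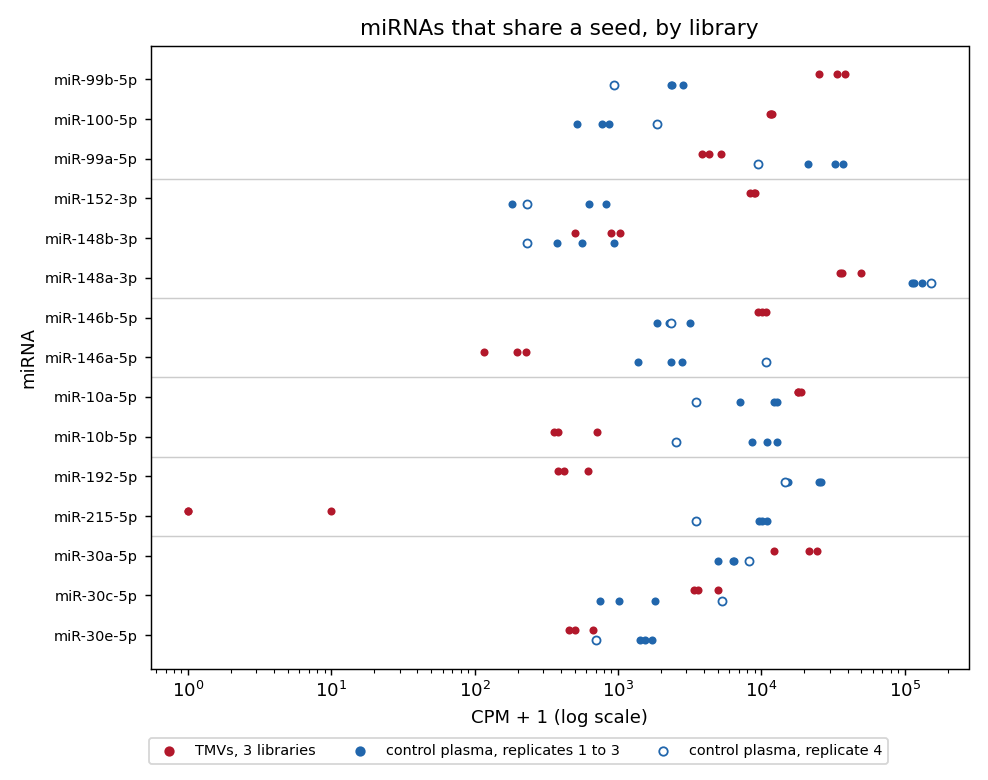
CPM + 1 by library (x axis, log scale) of miRNAs that share a seed, in blocks by family. Filled red points are the 3 TMV libraries, filled blue points control libraries 1 to 3 and open points control 4. miR-99b-5p and miR-100-5p lie above the controls in TMVs while miR-99a-5p lies below them, and the same holds for miR-152-3p against miR-148a-3p and for miR-146b-5p against miR-146a-5p.

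Strands of the same hairpin are given by their calls, beside the 45.2% of all 208 that were higher and the 23.6% that were lower. Both strands were tested for 31 hairpins. In 8 both were higher in TMVs, in 5 both were lower and in 10 only 1 passed. In 6 neither passed and in 2 they were called in opposite directions. The filter kept both strands of miR-9 and miR-28a through TMVs alone, and both of miR-144 and miR-150 through control plasma alone. It kept miR-671-5p through TMVs alone and miR-671-3p through control plasma alone. The sides of these strands followed from how they came to be tested. let-7d-5p was higher, 7094, 4477 and 4479.6 CPM in TMVs against 493, 1464, 1624 and 1864 CPM in controls (log2 fold change 2.03, SE 0.51, edgeR adjusted p = 0.00493). let-7d-3p was lower, 1775, 1068 and 1096 CPM against 11614, 6472, 9920.1 and 466 CPM (log2 fold change -2.47, SE 0.77, edgeR adjusted p = 0.0153), with control 4 below all TMV libraries. Its call was lost without TMV 2 (0.0668), TMV 3 (0.0688) or both controls with 2 numbers (0.0882). The ratio of the 5p to the 3p strand of let-7d, from mean CPM, was 4.07 in TMVs and 0.191 in controls. miR-671-5p had 49 TMV counts and none in controls, at least 11.9-fold higher, while miR-671-3p was lower by -3.06, at 27.3, 35.6 and 46.9 CPM against 309.8, 506, 253 and 0 CPM.

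Among hairpins with 1 arm called, miR-125a showed the widest gap. miR-125a-3p was at 1816, 1424 and 1008 CPM in TMVs and 0, 0, 23 and 466 CPM in controls (log2 fold change 6.12, SE 1.21, edgeR adjusted p = 0.00158), and the value was 5.46 without control 1 and 7.10 without control 4. The 5p strand was at 23029, 12488 and 11539 CPM in TMVs and 12146, 4791, 8097 and 0 CPM in controls, with control 4 at 0 and control 1 within the TMV range. No test of the difference between arms was made.

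**Figure D5:**
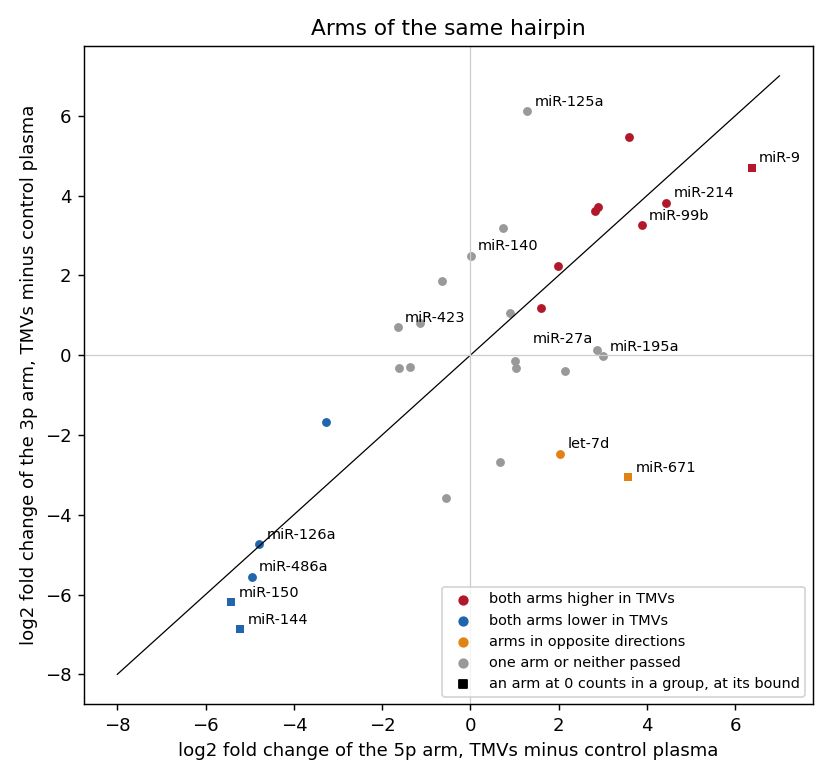
Log2 fold change of the 5p strand (x axis) and the 3p strand (y axis) of the 31 hairpins with both tested, TMVs minus control plasma with totals as the scale. The diagonal marks equal change of both strands. Squares mark hairpins with a strand at 0 counts in 1 group, drawn at its bound, and let-7d and miR-671 are the 2 with strands called in opposite directions.

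Precursors of some tested miRNAs lay within 10 kb of each other, and some mature miRNAs came from more than 1 such group. Calls on both sides were seen in the cluster of let-7d and let-7a-1, through the strands of let-7d above. The cluster of miR-25, miR-93 and miR-106b within Mcm7 on chromosome 5 also had both. There miR-25-3p was lower at 5244, 4362 and 5195 CPM against 14060.1, 27842, 28205 and 19334 CPM (log2 fold change -2.18, SE 0.40, edgeR adjusted p = 0.000890). miR-93-5p was just inside the threshold on the higher side (1.19, SE 0.49), a call lost with TMM factors (edgeR adjusted p = 0.484). In the cluster from miR-17 to miR-92a on chromosome 14, long known as an oncogenic locus, miR-17-5p and miR-20a-5p were higher by 2.52 and 2.25 and miR-19b-3p and miR-92a-3p did not pass, at 1.91 and -0.09. As a whole the cluster with its paralogues held 1.36% ± 0.207 of TMV counts and 3.04% ± 0.914 of control counts. miR-99a, lower in TMVs, lies beside let-7c-1 on chromosome 16 (chr16:77598936-77599000 and chr16:77599657-77599750, plus strand), while let-7c-5p was higher, and let-7c-5p has a further copy on chromosome 15. The erythroid pair of miR-144 and miR-451a on chromosome 11 and the pair of miR-200a and miR-200b on chromosome 4 were lower, beside 23.6% of all 208 tested. However, miR-200a-3p, miR-200b-3p and both strands of miR-144 were kept by the filter through control plasma alone. Their side followed from how they came to be tested. Likewise miR-17-5p was kept through TMVs alone.

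Plasma of C26-bearing mice lay on the plasma side for most of these miRNAs. Its 6 libraries held 5785 to 47017 counts without miR-5119, which took 0.332% to 58.7% of their totals. A count of 0 in them, read as at most 3 counts, leaves room for 63.8 to 519 CPM. For each of the 12 widest on the TMV side, all 6 C26-bearing plasma libraries were below all 3 TMV libraries, and for 10 of the 12 on the plasma side all 6 were above them, the exceptions being miR-375-3p and miR-455-5p. Over all called miRNAs this held for 63 of the 94 higher and 29 of the 49 lower, and it was counted for called miRNAs only. miR-31-5p was at a median of 31.9 CPM in C26-bearing plasma (range 0 to 147), below the 3-count limit of each library. The median of miR-122-5p there was 64935 CPM (range 5380.3 to 111495). These counts share the TMV libraries with the main comparison, and no test was made on them.

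Base composition of the mature strands differed little between the sides. The median G and C content was 47.8% for 82 higher miRNAs with a sequence, 45.5% for 41 lower and 47.6% over all 180, and the median length was 22 bases in each.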

How the data were processed

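Per the labels' protocols, vesicles from conditioned medium or plasma were pelleted by spins ending at 100000 g, RNA was taken with TriPure, and a NextSeq500 read the small RNA libraries as 75-base single reads. The names bcl2fastq and cutadapt 1.10 are listed in the submitters' processing notes. No aligner, counter, annotation or build is named in the sources used here. The authors deposited raw counts per mature miRNA, in separate tables for TMVs and plasma.

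Counts of miRNAs in both tables, without miR-5119, were tested with edgeR 4.0.16 in R 4.3.3 (robust quasi-likelihood fit, library size the table's total without miR-5119, no further factors, filterByExpr by group with minimum count 10, Benjamini-Hochberg over 208 miRNAs, threshold 0.05). The test was also run on simulated counts, with the outcome not reported here. Fold changes set 1 deposited table against the other. Members, families and tissue lists were chosen with earlier results of these data known. Named miRNAs are the 12 of largest change in each direction with no overlap and at least 1000 CPM in the higher group, the 10 most abundant of each group, 3 markers and up to 4 of the most abundant per list, 115 in all, of which 96 were tested. Arm pairs, seed relatives and neighbours outside this rule were named after their values were seen. A group at 0 was set at a floor of 3 counts over the group, and 1 to 3 counts gave a ratio of pooled counts with an exact 95% interval. Both cover counting error only. Floors without control 4 and rankings by pooled counts were added after seeing the data. Replicate numbers are shared by the groups but did not pair libraries.

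Precursor positions are from GENCODE M21 (GRCm38) and mature sequences from RefSeq (GRCm38.p6), matched by name for 180 of 208. Alternatives were TMM, RLE and upper quartile factors, totals over the rows of both tables, miR-5119 kept, no filter, DESeq2 1.42.0, a filter at 100 CPM in at least 3 libraries, voom with quality weights in limma 3.58.1, a fit that was not robust, a replicate block, each library left out and both controls with 2 numbers left out. Python 3.11.15 with pandas 2.3.3, numpy 2.4.6 and scipy 1.17.1 made the other tables.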

Additional observations from a re-analysis of the deposited data

Results flagged for a closer look

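Single control libraries that stood apart from the other 3 were looked for in 150 sets of 4 control values (named miRNAs, list shares and the miR-5119 share), by the gap to the nearest library over the range. The cut-off marks about 1 in 20 sets of normal values, but these sets are not of that kind. A miRNA counted in 1 control library alone is always marked, and list shares overlap with their members. In all 33 were marked, 18 of them by the shallow control 4, and this number cannot be set against chance. The groups of 3 TMV libraries are too small for this check.

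Control 4 stood above the others in its miR-5119 share (46.1% of all counts). Beyond miR-5119 it stood above them in muscle miRNAs (7.45% of counts), with miR-1a-3p at 72444 CPM, and in cartilage-linked miRNAs (1.93%), with miR-140-3p at 18169 CPM. It also led in miRNAs numbered 5000 and above (10.9% of counts), with miR-7082-5p at 30282 CPM and miR-5106 at 19800 CPM (19799.7). miR-146a-5p at 10715 CPM, miR-23a-3p at 1631 CPM, miR-101b-3p at 1398 CPM and miR-125a-3p at 466 CPM were further values of this library above the rest. So were miR-145a-5p, miR-223-3p and miR-665-3p, each at 932 CPM, miR-134-5p at 699 CPM, and miR-182-5p and miR-342-3p, each at 233 CPM; at this depth 699 CPM is 3 counts. Without control 4 the call of miR-5106 as lower in TMVs was lost (log2 fold change -2.46, edgeR adjusted p = 0.0814), and so was that of miR-1a-3p (-1.84, 0.162).

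Control 2 stood above the other controls in miR-6538 at 5315 CPM, miR-181b-5p at 325 CPM, miR-9-5p at 144.6 CPM, miR-196b-5p at 54.2 CPM, miR-34b-3p at 36.2 CPM and miR-34c-5p at 18.1 CPM. Control 3 stood above them in let-7c-5p at 8197 CPM, miR-142a-5p at 4795 CPM, miR-138-5p at 30.6 CPM and miR-143-5p at 7.66 CPM. Control 1 stood above them in miR-143-3p at 22250 CPM (22249.9), in the share of the miR-143 and miR-145 cluster at 2.28% of counts, in miR-34a-5p at 15.9 CPM, and in miR-222-5p and miR-29c-3p, each at 7.94 CPM or 1 count.

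Counts outside the comparison were few except in 1 library. miRNAs listed in the plasma table alone held 5.82% of the counts of control 4, and those listed in the TMV table alone held at most 0.0117% of a TMV library.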

How the results depend on the processing

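The calls were recomputed under 19 alternatives. Of the 143 called miRNAs, 61 higher and 36 lower were called in the same direction in every alternative that gave a value. The count higher ran from 74 to 100 and the count lower from 34 to 49 with 1 library left out, against 94 and 49. RLE factors gave 69 and 56, upper quartile factors 73 and 54, DESeq2 74 and 62, and the fit without a filter 111 and 69 of 749 tested. The share of calls on the higher side was 65.7% with totals, 54.1% with TMM, 55.2% with RLE, 57.5% with upper quartile factors and 54.4% in DESeq2. Without both controls with 2 numbers 31 were lower, with 38 of the 49 still tested and 30 of those kept; the cause was not tested. The share of the miR-148 and miR-152 family, TMVs minus controls, was -7.95 percentage points, and -6.12 with miR-5119 kept in the totals, which lowers every share of control 4. Replicate numbers were no pairing: deviations of same-numbered TMV and control libraries correlated at -0.0686, 0.0168 and -0.0201, and with the replicate block 93 were higher and 48 lower.

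No called named miRNA changed sign, while 8 that did not pass did. With TMM, RLE and upper quartile factors and DESeq2 in turn, miR-27b-3p moved from 0.46 to -0.34, -0.24, -0.16 and -0.23, miR-27a-3p from 0.12 to -0.75, -0.61, -0.48 and -0.62, miR-16-5p from 0.07 to -0.63, -0.55, -0.46 and -0.60, and miR-140-5p from 0.01 to -0.81, -0.65, -0.43 and -0.65. miR-148b-3p moved from 0.51 to -0.32, -0.18 and -0.19 with TMM, RLE and DESeq2, and miR-145a-5p from 2.14 to -0.85 in DESeq2. With miR-5119 kept miR-92a-3p moved from -0.09 to 0.091 and miR-101b-3p from -0.12 to 0.074. With the replicate block miR-92a-3p was at 0.010, miR-27a-3p at -0.029 and miR-101b-3p at 0.021. In voom miR-27a-3p was at -0.020 and miR-101b-3p at 0.0024, with no filter miR-16-5p was at -0.038, and with totals over shared rows miR-140-5p was at -0.0022. Without both controls with 2 numbers miR-92a-3p was at 0.28 and miR-16-5p at -0.095. With 1 library left out miR-92a-3p ran from -0.31 to 0.031, miR-27a-3p from -0.053 to 0.31, miR-101b-3p from -0.41 to 0.10, miR-16-5p from -0.30 to 0.69 and miR-140-5p from -0.40 to 0.35. The causes were not tested. Depth limits control 4, where 1 count is 233 CPM.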

Other observations

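miRNAs with late numbers, 5000 and above, made up 334 of the miRNAs in both tables, and 12 passed the filter. Of these 12, 5 were higher in TMVs and 5 lower (3 and 6 with TMM factors), beside 45.2% and 23.6% of all 208 with totals. The filter kept 3 through TMVs alone and 5 through control plasma alone. The late-numbered miRNAs held 1.41% ± 0.311 (SD, n = 3) of TMV counts and 3.43% ± 5.04 (SD, n = 4) of control counts, or 0.927% ± 0.828 without control 4. miR-5099 was the most abundant of them in TMVs, at 13054, 11046 and 6233 CPM against 47.7, 2567, 597 and 1165 CPM in controls (log2 fold change 3.23, SE 0.95, edgeR adjusted p = 0.0121). miR-5108 was at 116, 17.8 and 35.2 CPM in TMVs and 246, 1482, 2482 and 10948 CPM in controls (log2 fold change -5.90, SE 1.34, edgeR adjusted p = 0.00338). miR-6538 was at 61.4, 8.90 and 5.86 CPM in TMVs and 143, 5315, 1019 and 466 CPM in controls (log2 fold change -6.08, SE 1.42, edgeR adjusted p = 0.00381), a call lost when both controls with 2 numbers were left out (0.0542).

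Among called miRNAs outside every list, 4 had no count in any control library and were seen in all 3 TMV libraries: miR-574-5p (146 counts, at least 35.9-fold higher), miR-669c-5p (73 counts, at least 18.1-fold), miR-193a-5p (52 counts, at least 12.7-fold) and miR-671-5p (49 counts, at least 11.9-fold). By pooled counts miR-574-5p was at least 35.8-fold and miR-669c-5p at least 17.9-fold higher. miR-30c-2-3p had 197 TMV counts and 1 control count, 145-fold higher by pooled counts (25.7 to 5756, exact 95% counting interval). These were singled out after their values were seen.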
